A study of Mus musculus with 12 samples.

Results

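The genes described here belong to the unfolded protein response and the integrated stress response: Hspa5, Hsp90b1, Xbp1, Atf4, Atf6, Ddit3, Trib3, Asns, Dnajb9 and Herpud1. They were picked by gene name, 10 genes of the 55385 features in a liver RNA-Seq table. The names fill 11 rows, because Ddit3 is used by 2 identifiers, and the row ENSMUSG00000116429.1 was listed at 0 in all 12 mice and was not used. All 10 genes reached the minimum for testing, a mean of 1 TPM (transcripts per 1000000, a read count divided by gene length and scaled to the same total in every mouse), as did 16378 features in all.

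The livers came from male C57BL/6 mice, 7 weeks old, killed 7 days after injection of adenovirus at a total of 500000000 plaque-forming units per mouse. The 4 Ad-Ctrl mice received a Lac control virus with the empty virus pAdV5. The 4 Ad-shmGULL mice received a virus carrying a short hairpin RNA against the mouse lncRNA mGULL, with pAdV5, and the 4 Ad-shmGULL+hGULL mice received the same hairpin with a virus expressing the human lncRNA hGULL, regarded as its functional counterpart. Comparing the 3 groups asks which genes move when mGULL is knocked down and whether hGULL brings them back. All groups therefore carried adenovirus, and uninfected mice were not analysed here. The sources used here name the route as intravitreal in one place and retro-orbital in another, and do not say which of the hairpins was used for these mice. The levels of mGULL and hGULL were not analysed here, and the groups are those of the labels.

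The tissue was checked against 8 lists of cell type markers. All 10 hepatocyte markers were tested, and their summed level was 77805 to 122521 TPM over the 12 mice, against 174 to 358 TPM for 8 endothelial markers and 14.8 to 49.8 TPM for 8 B and plasma cell markers. The plasma cell marker Tnfrsf17 was listed at 0 in every mouse. Because TPM always sum to 1000000, the sequencing depth is not known, and error is measured only by the spread between mice of the same group. In the tests with limma that spread was pooled over the 3 groups and moderated across genes. In whole tissue, fewer cells of a type and less RNA per cell cannot be told apart.

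Cells that secrete much protein, hepatocytes among them, watch for unfolded protein in the endoplasmic reticulum (ER) through the sensors IRE1 (gene Ern1), PERK (Eif2ak3) and ATF6. IRE1 cuts a short stretch out of the Xbp1 mRNA, and the protein made from the spliced mRNA turns on genes for ER folding, translocation and disposal of misfolded proteins. ATF6 is cleaved after leaving the ER and induces chaperones such as BiP (Hspa5) and GRP94 (Hsp90b1). PERK phosphorylates eIF2alpha, as do the kinases PKR, GCN2 and HRI, which slows translation in general and favours translation of ATF4. ATF4 then raises CHOP (Ddit3), Trib3 and amino acid genes such as Asns, and this arm is called the integrated stress response. In liver, XBP1 is known for supporting secretion and lipid synthesis.

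The stretch that IRE1 removes is shown because values per gene add up both forms of Xbp1, so the results below say nothing of splicing. In the GENCODE vM39 annotation, 19 of 24 Xbp1 transcripts hold the 26 bases in capitals and 1 has the same letters on both sides without them. The lower case letters are the 20 bases on either side. Because the stretch and the letters after it begin alike, the comparison of transcripts alone does not fix its placement. Of the placements that follow a g, start with c and end with g, 2 fit, 3 bases apart. The one shown is that which IRE1 is known to cut, after ccg and after ctg.
Xbp1: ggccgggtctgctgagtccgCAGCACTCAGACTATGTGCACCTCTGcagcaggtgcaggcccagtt

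The promoters of the genes on which the results turn are shown next, to set the 2 members that were lower after knockdown, Xbp1 and Dnajb9, beside members that were not called. RefSeq windows of GRCm38.p6, from 250 bases before to 50 after the start of a gene, were found for 9 of the 10 genes, all but Atf6. Capitals mark matches, on either strand, to the ER stress element ERSE (CCAAT and CCACG with any 9 bases between them), to ERSE-II (ATTGG and CCACG with any 1 base between them), to the XBP1-type element UPRE (core TGACGTGG) or to the ATF4-type element CARE (TGATGNAA). Among 32851 windows, ERSE was found in 0.119%, ERSE-II in 0.0365%, the UPRE core in 0.676% and CARE in 3.97%. Letters such as these overlap in part, since ERSE and ERSE-II share CCACG, and a match is a description of the letters and not a bound site.
Hspa5, chr2:34771960-34772089, plus strand: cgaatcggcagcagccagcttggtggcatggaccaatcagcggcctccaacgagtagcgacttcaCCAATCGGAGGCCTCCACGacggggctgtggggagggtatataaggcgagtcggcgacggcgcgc
Hsp90b1, chr10:86705525-86705674, minus strand: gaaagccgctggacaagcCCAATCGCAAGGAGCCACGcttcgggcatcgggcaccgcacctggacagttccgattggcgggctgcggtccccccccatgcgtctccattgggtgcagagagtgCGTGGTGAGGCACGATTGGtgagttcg
Herpud1, chr8:94386299-94386428, plus strand: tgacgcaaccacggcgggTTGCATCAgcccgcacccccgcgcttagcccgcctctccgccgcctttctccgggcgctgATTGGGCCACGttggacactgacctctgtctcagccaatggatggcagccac
Asns, chr6:7693210-7693339, minus strand: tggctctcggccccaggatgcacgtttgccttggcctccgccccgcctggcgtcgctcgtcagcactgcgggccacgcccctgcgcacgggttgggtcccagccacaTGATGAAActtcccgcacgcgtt
Xbp1, chr11:5520511-5520640, plus strand: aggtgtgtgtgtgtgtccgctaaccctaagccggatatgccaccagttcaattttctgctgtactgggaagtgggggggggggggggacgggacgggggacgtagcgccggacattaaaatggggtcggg
Dnajb9, chr12:44210069-44210198, minus strand: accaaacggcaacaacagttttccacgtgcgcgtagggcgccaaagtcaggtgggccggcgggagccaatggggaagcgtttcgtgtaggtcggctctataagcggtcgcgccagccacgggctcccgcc

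Hspa5 held 1 ERSE at -65 to -47, and Hsp90b1 held an ERSE at -212 to -194 and another, on the other strand, at -107 to -89. Herpud1 held an ERSE-II at -52 to -42 and a CARE on the other strand at -112 to -105. Asns held a CARE at -23 to -16, and the CARE of Trib3 lay after its start, at 15 to 22. None of these letters was found in the windows of Xbp1, Dnajb9, Atf4 and Ddit3, which says only that they are not in these windows.

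**Figure D1:**
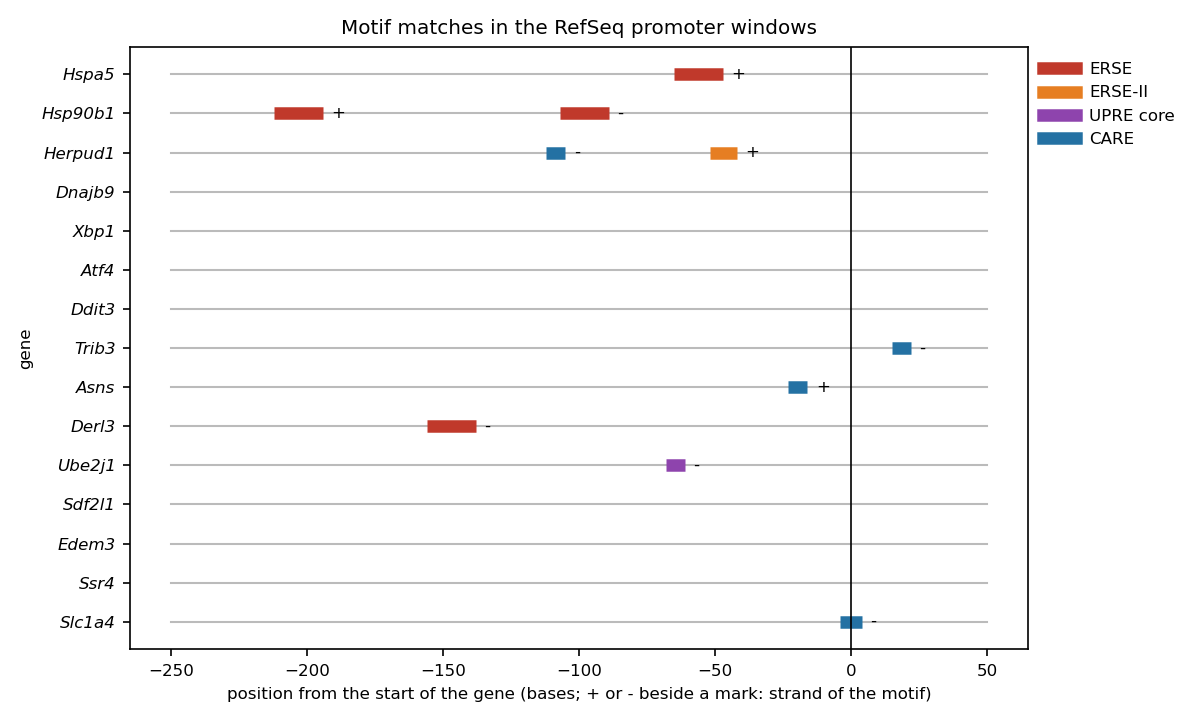
Motif matches in the RefSeq promoter windows of 9 of the 10 genes and of 6 further genes of the stress response lists, drawn against position from the start of the gene in bases. Coloured bars are matches and the + or - beside them is the strand; the Hspa5 and Hsp90b1 windows hold ERSE, the Ube2j1 window holds a UPRE core, and the Xbp1 and Dnajb9 windows hold no match.

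After mGULL knockdown, Xbp1 and Dnajb9 were lower than in Ad-Ctrl, while the knockdown mice overlapped with the control mice in Hspa5, Hsp90b1, Atf4, Atf6, Ddit3, Trib3, Asns and Herpud1. Of the 10 genes, 1 passed the threshold of the study (a change of more than 0.5 on the log2 scale, at P below 0.05 before adjustment), namely Dnajb9, which was lower; 2.3% of all tested genes passed as lower and 7.65% in either direction. At an adjusted p under 0.05, 2 of the 10 were called, Xbp1 and Dnajb9, both lower, against 0.794% of all genes called as lower, 2.44% as higher and 3.23% in either direction; before adjustment 2 of the 10 had P under 0.05, against 20.2% of all genes. In these 2 genes every Ad-shmGULL mouse lay below every Ad-Ctrl mouse, which held for 2.06% of all genes, and 8.99% did not overlap in either direction. The median log2 fold change of the 10 genes was -0.10, and that of all genes was 0.09. Leaving out Ad-Ctrl mouse 2, Ad-Ctrl mouse 4 or Ad-shmGULL mouse 2 left 0 of the 10 genes at an adjusted p under 0.05, although Dnajb9 passed the study's threshold without any 1 of the 12 mice.

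When hGULL was expressed with the hairpin, Xbp1 and Dnajb9 were higher than in Ad-shmGULL and each rescue range overlapped with the control range. In rescue minus knockdown, 1 of the 10 genes passed the study's threshold, Dnajb9, as higher; 2.33% of all genes passed as higher, 0.672% as lower and 3% in either direction. None of the 10 genes was called at an adjusted p under 0.05 in limma, nor was any of the 16378 genes tested, where the smallest adjusted p was 0.117. At an unadjusted P under 0.05 there were 3 of the 10, Xbp1, Dnajb9 and Atf6, against 10.7% of all genes. In Xbp1, Dnajb9, Atf6 and Hsp90b1, 4 of the 10, all rescue mice lay above all knockdown mice, against 5.4% of all genes. The median log2 fold change of the 10 genes was 0.17, and that of all genes was 0.09. This comparison and the one before it share the 4 Ad-shmGULL mice, so a low value in those mice enters both.

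Between rescue and control, 0 of the 10 genes passed the study's threshold, 0 an adjusted p under 0.05 and 0 an unadjusted P under 0.05 in limma, against 7.49%, 2.15% and 25.3% of all genes. The median log2 fold change of the 10 genes was -0.07, and that of all genes was 0.17. The mice of the groups overlapped in all 10 genes, whereas they did not in 22.3% of all genes.

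**Figure D2:**
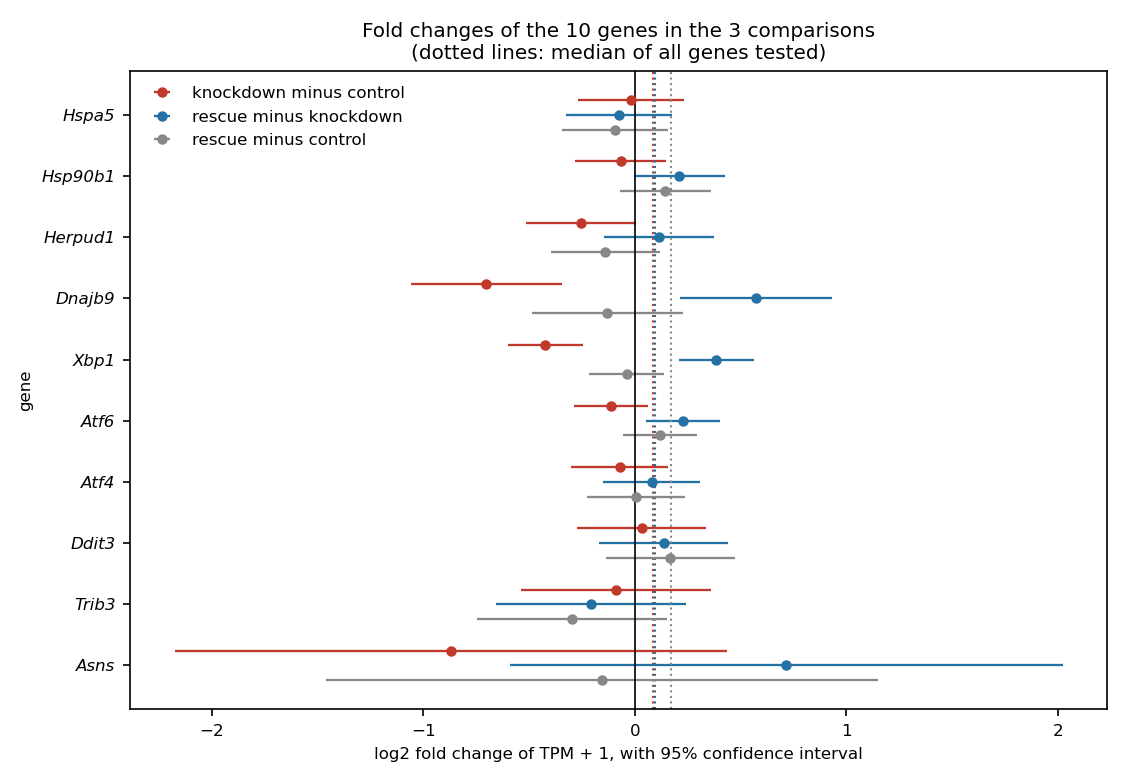
Log2 fold change of TPM + 1 for each of the 10 genes in 3 comparisons, with points for the estimate, bars for the 95% confidence interval and dotted lines for the median of all 16378 genes tested. The intervals of Xbp1 and Dnajb9 lie below 0 in knockdown minus control and above 0 in rescue minus knockdown, and the interval of Asns is the widest of the 10.

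Among themselves the 10 genes fell into levels far apart. In Ad-Ctrl, Hsp90b1 (596 ± 51.1 TPM, SD, n = 4), Herpud1 (594 ± 77.0 TPM) and Hspa5 (502 ± 75.5 TPM) were highest, and the ranges of their mice overlapped. Xbp1 (158 ± 11.8 TPM), Atf4 (91.8 ± 6.63 TPM), Dnajb9 (68.6 ± 7.80 TPM) and Atf6 (41.1 ± 3.09 TPM) followed, each without overlap with the next. Trib3 (11.7 ± 4.37 TPM), Asns (10.7 ± 10.5 TPM) and Ddit3 (6.67 ± 1.08 TPM) were lowest, and their ranges overlapped. TPM are divided by gene length, so these levels may be compared between genes.

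**Figure D3:**
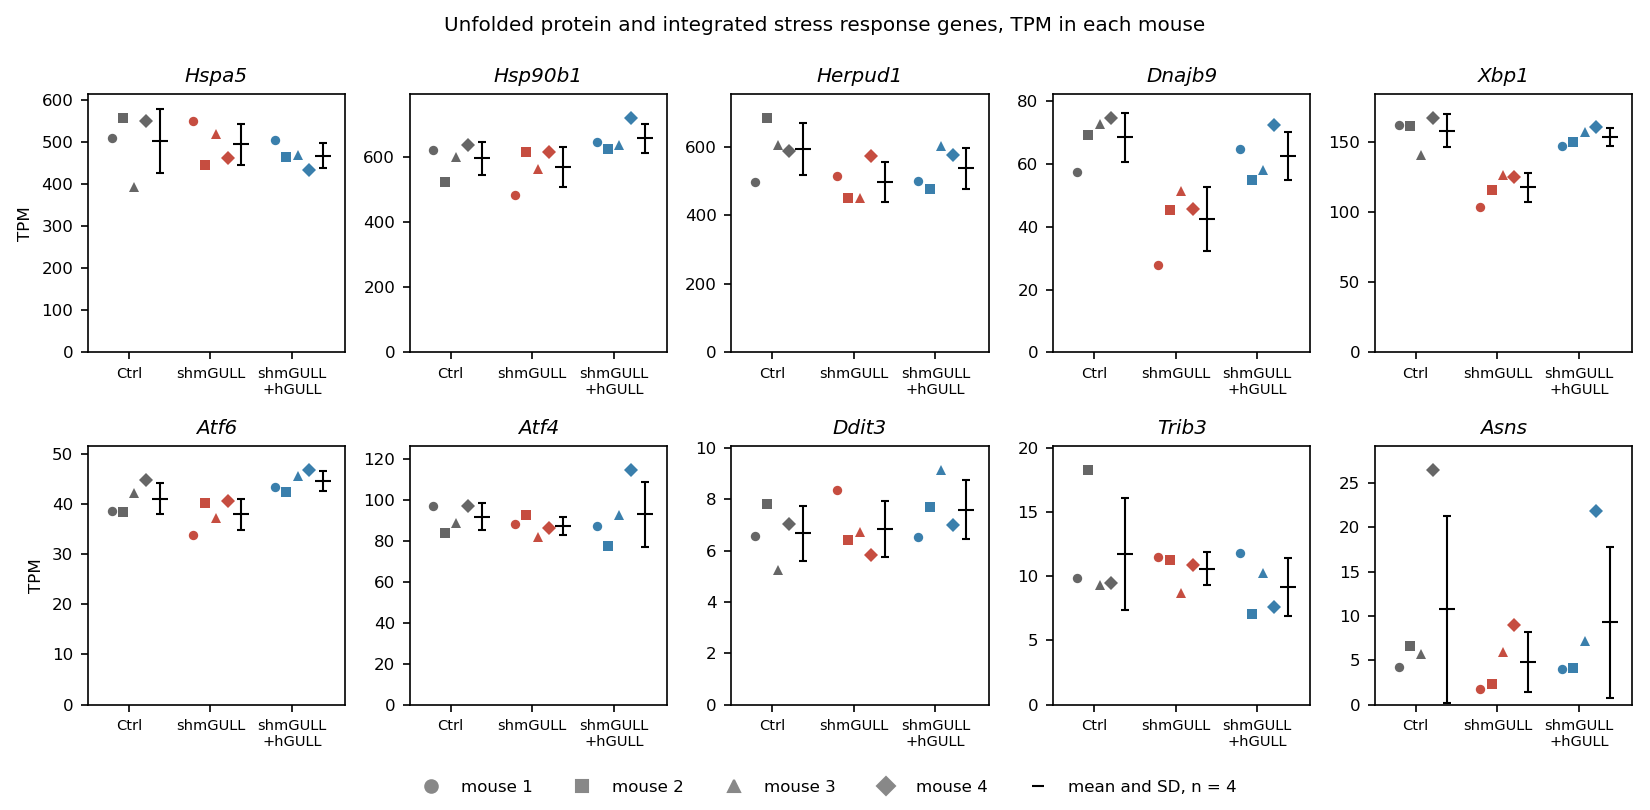
TPM of each of the 10 genes in each of the 12 mice, by group, with 1 symbol per mouse number and the mean and SD of 4 mice as a black bar; every axis starts at 0. The 4 Ad-shmGULL mice lie below the other 8 in the Xbp1 and Dnajb9 panels, and in the Asns panel mouse 4 is the highest of each group.

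Xbp1 encodes the transcription factor of the IRE1 arm (chr11:5520641-5525993, GRCm38.p6). It measured 162, 161, 141 and 167 TPM in the 4 Ad-Ctrl mice. The Ad-shmGULL mice had 104, 115, 126 and 125 TPM, and the rescue mice 147, 149, 157 and 160.2 TPM. The knockdown mice were thus the lowest of the 12, with their highest mouse below the lowest of either other group, while rescue and control overlapped. The knockdown mean was 74.5% of the control mean, a log2 fold change of -0.42 (SE 0.08, adjusted p = 0.019), short of the study's 0.5. Rescue minus knockdown was 0.39 (95% confidence interval 0.21 to 0.56, adjusted p = 0.29). Rescue minus control was -0.04 (95% confidence interval -0.22 to 0.14), and -0.21 once the median change over all genes was taken off. Exact two-sided permutation of the mice gave p = 0.0286 for knockdown against control and for rescue against knockdown, the smallest value that 4 against 4 allows. When the values were scaled so that the median gene did not move, the knockdown change of Xbp1 was -0.53 and passed the study's threshold.

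The span of Xbp1 overlaps that of Ccdc117 on the other strand in the GENCODE annotation of GRCm39. In RefSeq on GRCm38.p6, the build of the alignment, the spans do not overlap, with Ccdc117 at chr11:5528887-5542217. The spans of GENCODE VM24, used for the counting, were not compared here. The libraries were strand-specific, but the strand setting of the counting is not given in the sources used here. Ccdc117 had log2 fold changes of 0.18 in knockdown minus control and 0.10 in rescue minus knockdown, with adjusted p = 0.26 and adjusted p = 0.65; the first is opposite in sign to the change of Xbp1 and the second has the same sign.

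Dnajb9 encodes ERdj4, an ER co-chaperone of BiP that binds IRE1 and is a known target of spliced XBP1 (chr12:44205897-44210068). Ad-Ctrl mice had 57.4, 69.3, 72.8 and 74.8 TPM. Ad-shmGULL mice had 28.0, 45.2, 51.4 and 45.6 TPM, and rescue mice 64.7, 55.0, 58.1 and 72.4 TPM. All knockdown mice were below all others, and Ad-shmGULL mouse 1 was the lowest of them. The knockdown mean was 62.1% of the control mean, with a log2 fold change of -0.70 (SE 0.16, adjusted p = 0.040). In rescue minus knockdown the log2 fold change was 0.57 (95% confidence interval 0.22 to 0.93, adjusted p = 0.34). Without Ad-shmGULL mouse 1 it was 0.39, which no longer passed the study's threshold. Rescue minus control was -0.13 (95% confidence interval -0.49 to 0.23).

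The sensors themselves did not pass a test after knockdown. Ern1, the gene of IRE1, ranged from 40.1 to 51.7 TPM in control and from 37.5 to 50.3 TPM in knockdown, with a log2 fold change of -0.04 (adjusted p = 0.87). Eif2ak3, the gene of PERK, had a log2 fold change of -0.10 (adjusted p = 0.57). Of the 9 tested genes in the list of sensors and transducers, 0 passed the study's threshold or an adjusted p under 0.05 in any of the 3 comparisons. The study's threshold was passed by 7.65% of all genes after knockdown, 3% in rescue minus knockdown and 7.49% in rescue minus control. At an adjusted p under 0.05 these shares were 3.23%, 0% and 2.15%. In knockdown minus control 2 of the 9 had an unadjusted P under 0.05, against 20.2% of all genes. These were Creb3l2, an ER-bound transcription factor cleaved like ATF6, with -0.38 (adjusted p = 0.067), and Nfe2l1, an ER-bound factor that raises proteasome genes, with 0.22 (adjusted p = 0.20). In Creb3l2 the knockdown mice (14.1 to 16.8 TPM) lay below the control mice (17.6 to 23.0 TPM). Mbtps1, the Golgi protease that cuts ATF6, had 0.12 (adjusted p = 0.33), and Mbtps2, which cuts it next, had 0.24 in rescue minus knockdown (adjusted p = 0.54).

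Members of the ER lists with the smallest P after knockdown were found both below and above control. Sdf2l1, a partner of ER chaperones, stood at 61.7, 60.5, 60.2 and 69.3 TPM in Ad-Ctrl. It was at 24.6, 13.2, 36.3 and 24.4 TPM in Ad-shmGULL and at 35.1, 35.8, 46.2 and 43.0 TPM in rescue. Control mice were the highest and did not overlap with either other group, while knockdown mouse 3 lay among the rescue mice. Its log2 fold change was -1.40 in knockdown minus control (SE 0.22, adjusted p = 0.0099) and 0.75 in rescue minus knockdown (adjusted p = 0.36), and rescue stayed below control by -0.65 (adjusted p = 0.11). Without Ad-shmGULL mouse 2 the rescue minus knockdown change was 0.49, short of the study's threshold.

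Ube2j1, the ER-bound ubiquitin-conjugating enzyme of ER-associated degradation, had 40.2, 35.3, 40.9 and 42.8 TPM in Ad-Ctrl. Ad-shmGULL mice had 21.4, 26.5, 27.1 and 25.95 TPM, and rescue mice had 36.9, 35.1, 35.3 and 39.5 TPM. Knockdown mice lay below all other mice, and rescue mice overlapped with control mice. The log2 fold change was -0.64 after knockdown (SE 0.09, adjusted p = 0.0075) and 0.53 in rescue minus knockdown (adjusted p = 0.16). The latter passed the study's threshold, but was 0.45 without Ad-shmGULL mouse 1, 0.49 without rescue mouse 4, and 0.43 when scaled so that the median gene did not move, all short of it.

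Edem3, which trims mannose from misfolded glycoproteins, had 34.9, 33.5, 37.9 and 39.3 TPM in control, 20.8, 27.2, 27.7 and 28.2 TPM in knockdown, and 33.7, 33.8, 33.9 and 35.9 TPM in rescue. Again the knockdown mice were the lowest, with a log2 fold change of -0.48 (SE 0.10, adjusted p = 0.024). Rescue minus knockdown was 0.40 (adjusted p = 0.32). Ssr4, a subunit of the translocon-associated complex, was lower by a smaller step, at 45.2 to 47.1 TPM in knockdown against 53.3 to 59.7 TPM in control (log2 fold change -0.28, adjusted p = 0.045) and 50.6 to 59.0 TPM in rescue. The adjusted p of Ssr4 was under 0.05 in 6 of 21 alternatives and at most 0.15, and that of Edem3 was under 0.05 in 18 of 21. Derl3, a channel protein of ER-associated degradation, is named here after its values were seen. It measured 2.48, 4.04, 6.73 and 8.28 TPM in control, 2.03, 0.85, 1.48 and 2.84 TPM in knockdown, and 3.57, 3.57, 3.99 and 11.8 TPM in rescue. Control and knockdown overlapped, and the log2 fold changes were -1.14 (adjusted p = 0.11) and 1.16 (adjusted p = 0.38).

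The promoters of Derl3 and Ube2j1 are shown because, of the 5 genes just described, they alone held one of the letters searched, an ERSE on the other strand at -156 to -138 and a UPRE core on the other strand at -68 to -61. The windows of Sdf2l1, Edem3 and Ssr4 held none.
Derl3, chr10:75893218-75893347, plus strand: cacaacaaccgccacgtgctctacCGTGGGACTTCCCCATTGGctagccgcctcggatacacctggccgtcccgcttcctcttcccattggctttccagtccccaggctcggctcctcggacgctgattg
Ube2j1, chr4:33031250-33031379, plus strand: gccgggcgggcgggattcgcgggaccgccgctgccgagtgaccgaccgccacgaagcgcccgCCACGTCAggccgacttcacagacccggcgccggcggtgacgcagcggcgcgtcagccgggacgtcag

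**Figure D4:**
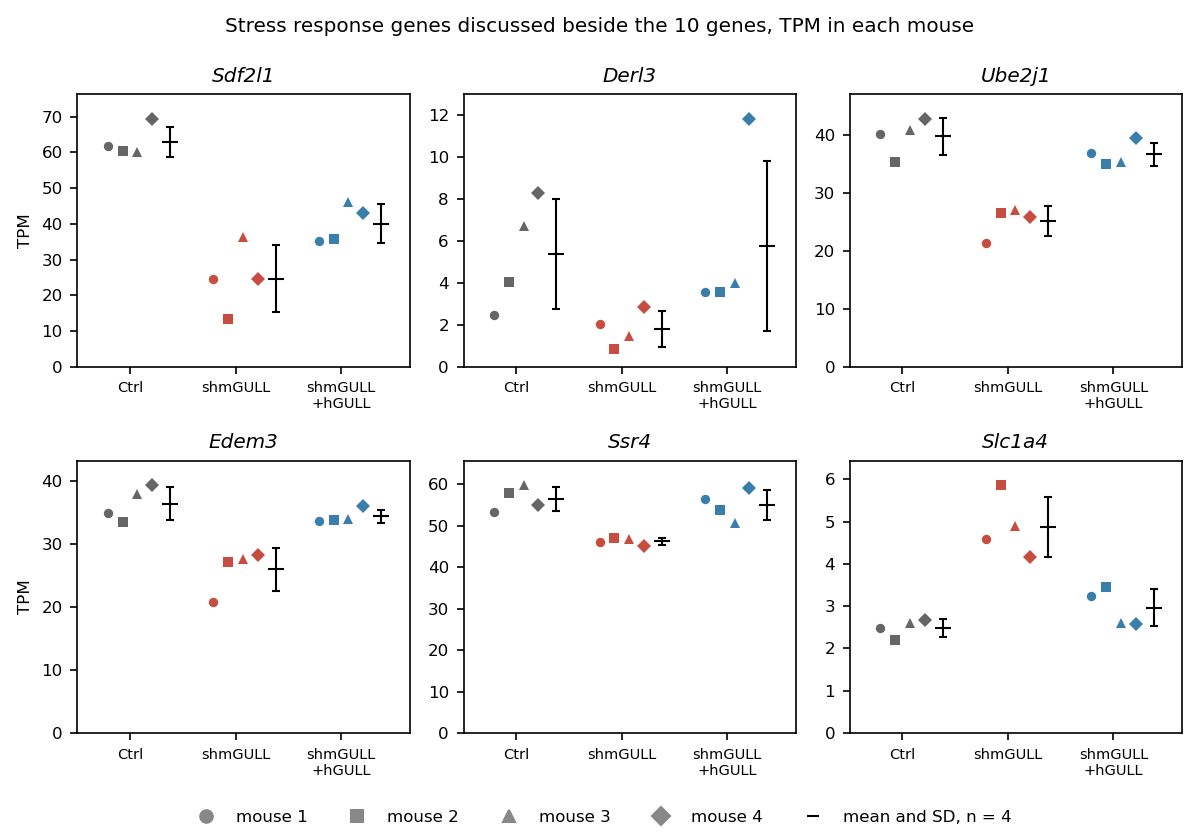
TPM of 6 genes of the stress response lists in each of the 12 mice, by group, with the mean and SD of 4 mice as a black bar and every axis starting at 0. In Sdf2l1, Ube2j1, Edem3 and Ssr4 the 4 knockdown mice lie below the 4 control mice, in Derl3 control and knockdown overlap, and in Slc1a4 the knockdown mice lie above the others.

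Other genes of the same lists moved upwards. Sel1l, the scaffold of the ER-associated degradation ligase, was at 93.9 to 99.6 TPM in knockdown against 76.1 to 84.0 TPM in control (log2 fold change 0.27, adjusted p = 0.030). Ssr2 (0.41, adjusted p = 0.045), another translocon-associated subunit, and Surf4 (0.33, adjusted p = 0.049), a cargo receptor for export from the ER, were also higher. These calls depended on the processing: an adjusted p under 0.05 was kept in 7 of 21 alternatives for Sel1l, 6 of 21 for Ssr2 and 3 of 21 for Surf4, with adjusted p up to 0.24, 0.15 and 0.17. The plot of the lists shows these changes beside the rest. The ER-associated degradation list had 20 tested genes, of which 2 passed the study's threshold after knockdown, both lower, against 2.3% of all genes as lower, and its median log2 fold change was 0.05. That count was 1 at a mean TPM of at least 5, which leaves Derl3 out, and 2 to 3 under the other alternatives. The translocation and export list had 25 tested genes, of which 0 passed that threshold, against 7.65% of all genes, and its median was 0.05. At an adjusted p under 0.05, 1 of the 20 degradation genes was called as higher and 2 as lower. Of the 25 translocation and export genes, 2 were called as higher and 1 as lower. Among all genes 2.44% were called as higher and 0.794% as lower. Srp68, a subunit of the signal recognition particle, had -0.25 after knockdown (adjusted p = 0.18) and 0.33 in rescue minus knockdown (adjusted p = 0.37). In these lists and the others below the median of all genes was 0.09. Relative to that median the changes of Xbp1, Dnajb9, Sdf2l1 and Ube2j1 were -0.51, -0.79, -1.48 and -0.73. Those of Sel1l and Ssr2, which were higher, became smaller, at 0.19 and 0.33.

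Markers of other cells also differed between groups. For all genes the median log2 fold change was 0.09 after knockdown, 0.09 in rescue minus knockdown and 0.17 in rescue minus control. After knockdown 5.35% of all genes passed the study's threshold as higher and 2.3% as lower, and in rescue minus knockdown 0.672% passed as lower. All 8 endothelial markers had a log2 fold change above 0 in knockdown minus control, their summed level was 174 to 295 TPM in control, 282 to 358 TPM in knockdown and 277 to 320.2 TPM in rescue, and 1 of them, Stab2, passed the study's threshold. Against control all 8 were also above 0 in rescue, and 3 of 8 were above 0 in rescue minus knockdown. In rescue minus control 0 of 8 passed the study's threshold, and the summed levels of rescue and control overlapped. Hepatocyte markers summed to 87154 to 122521, 88498 to 104721 and 77805 to 92778 TPM, and 2 of 10 passed as lower after knockdown, Apoa1 (-0.60) and Tat (-0.80). Rescue minus control also had 2 of 10 hepatocyte markers passing as lower, against 0.641% of all genes, and 2 of 10 above 0. B and plasma cell markers, which include the secretory cells richest in spliced XBP1, summed to 14.8 to 31.9, 25.2 to 49.8 and 21.3 to 29.4 TPM, with 4 of 4 tested markers above 0 after knockdown and 0 of 4 in rescue minus knockdown. Ighm, one of them, passed the study's threshold after knockdown (0.95, adjusted p = 0.10). Neutrophil markers summed to 101 to 236, 119 to 274 and 89.2 to 141 TPM, and 2 of 4 tested passed as lower in rescue minus knockdown, S100a8 (-0.78) and S100a9 (-0.84). Kupffer cell and macrophage markers summed to 446 to 762, 414 to 729.5 and 515 to 664 TPM, and 1 of 10, Marco, passed as lower after knockdown (-1.04). Of these 10 markers, 1 passed as lower in rescue minus control. The part of these cells in the changes of Xbp1, Dnajb9 and the list genes was not tested.

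**Figure D5:**
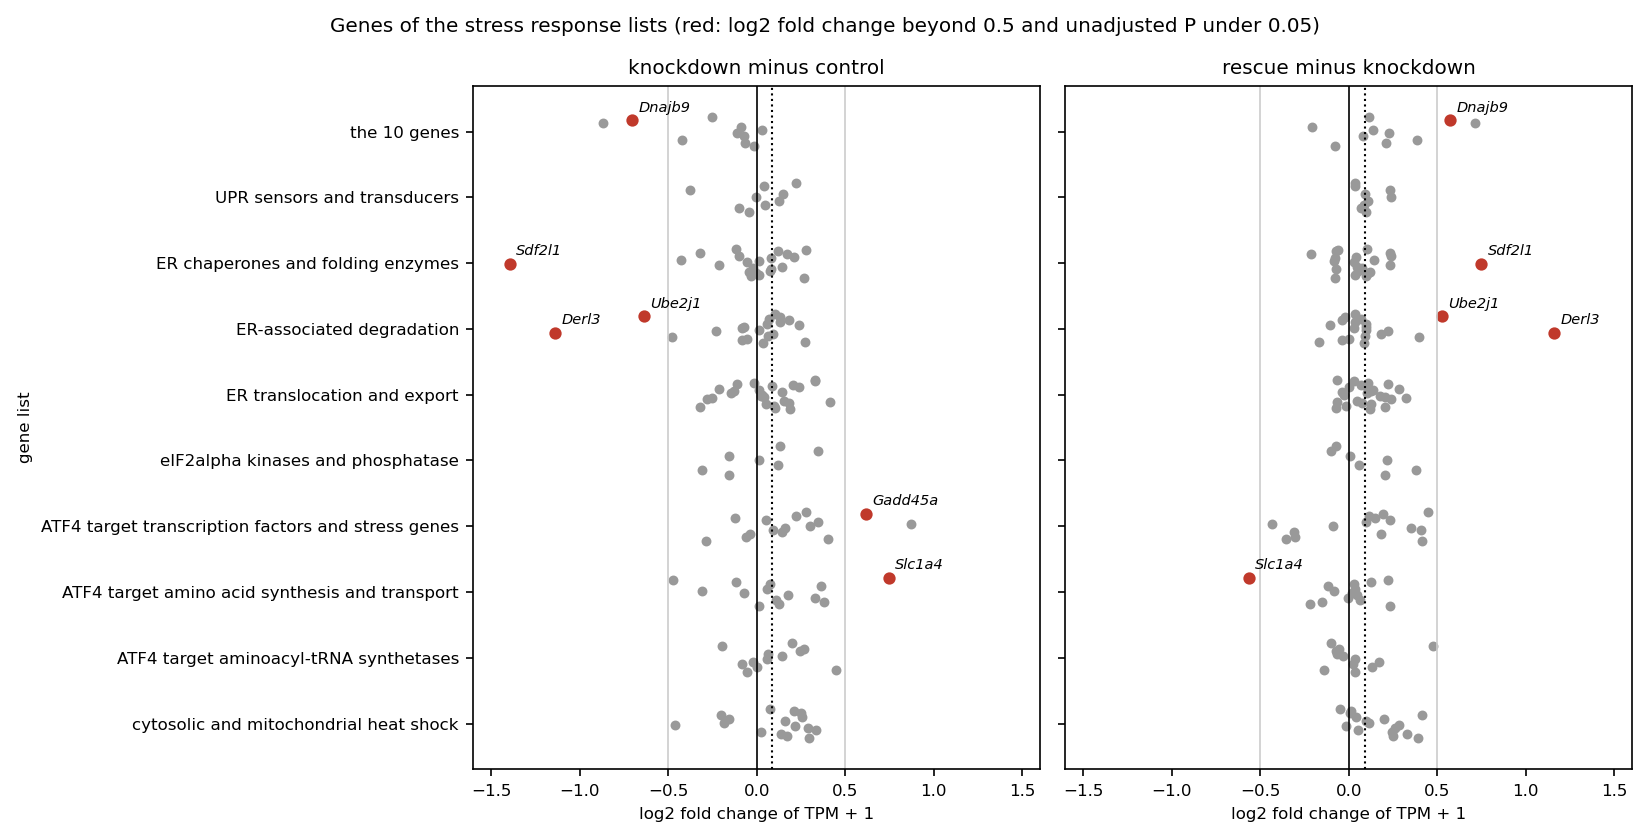
Log2 fold change of TPM + 1 after knockdown (left) and in rescue minus knockdown (right) for the tested genes of the 10 and of 9 stress response lists, with genes past the study's threshold in red and named, grey lines at -0.5 and 0.5 and a dotted line at the median of all genes. After knockdown 2 list genes passed as higher and 3 as lower of 140 tested, and the other points lie on both sides of 0.

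ATF6 and the chaperones it is known to induce come next. Atf6 (chr1:170704457-170868585) was at 38.7, 38.4, 42.3 and 44.9 TPM in control, 33.9, 40.3, 37.2 and 40.5 TPM in knockdown, and 43.4, 42.4, 45.7 and 46.9 TPM in rescue. Knockdown and control overlapped, and all rescue mice lay above all knockdown mice. The log2 fold change was -0.11 after knockdown (95% confidence interval -0.29 to 0.06) and 0.23 in rescue minus knockdown (adjusted p = 0.40).

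Hspa5, the ER chaperone BiP (chr2:34772090-34776529), had 509, 557, 394 and 549 TPM in control. Knockdown mice had 549, 446, 519 and 460.4 TPM, and rescue mice 503, 465, 468 and 432 TPM. The groups overlapped throughout, and the lowest mouse of all was a control. Its log2 fold changes were -0.02 (95% confidence interval -0.27 to 0.23) after knockdown and -0.08 (-0.33 to 0.17) in rescue minus knockdown.

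Hsp90b1, the ER chaperone GRP94 (chr10:86690841-86705444), had 623, 523, 599 and 638 TPM in control, 484, 615, 564 and 616 TPM in knockdown, and 645, 625, 638 and 721 TPM in rescue. Control and knockdown overlapped, and the rescue mice were above all knockdown mice. Its log2 fold changes were -0.07 (95% confidence interval -0.28 to 0.15) and 0.21 (-0.01 to 0.42, adjusted p = 0.47). The latter interval includes 0, although the mice did not overlap (exact permutation p = 0.0286).

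Herpud1, which helps ER-associated degradation and carries both an ERSE-II and a CARE (chr8:94386429-94395371), had 498, 686, 604 and 587 TPM in control. Knockdown mice had 514, 451, 450.1 and 573 TPM, and rescue mice 500.3, 476, 602 and 575 TPM. Its groups overlapped, with a knockdown mean of 83.7% of the control mean (log2 fold change -0.25, 95% confidence interval -0.51 to 0.01, adjusted p = 0.26). Rescue minus knockdown was 0.12 (adjusted p = 0.72).

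The chaperone list around them held 22 tested genes, of which 1, Sdf2l1, passed the study's threshold or an adjusted p under 0.05 after knockdown. Of all genes 7.65% and 3.23% did. In this list 11 had a fold change above 0 and 11 below 0, and the median was 0.00. Calr, the lectin chaperone calreticulin, was at 918 to 1023 TPM in the knockdown mice and 752 to 873 TPM in the control mice, with a log2 fold change of 0.27 and an adjusted p of 0.081. Txndc5, a disulfide isomerase, had 0.28 (adjusted p = 0.069), and Ppib, a prolyl isomerase of the ER, had -0.10 after knockdown (adjusted p = 0.65) and 0.24 in rescue minus knockdown (adjusted p = 0.45). ERSE was found in the windows of 6 of the 19 genes of this list that had one: Calr, Canx, Creld2, Dnajc3, Ero1lb and Pdia6. Apart from Calr, the log2 fold changes of Canx, Creld2, Dnajc3 and Pdia6 after knockdown were -0.03, 0.01, -0.02 and -0.04, and that of Ero1lb, an ER oxidase, was 0.21 (adjusted p = 0.31). These genes are named because of that motif.

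The PERK and ATF4 arm comes last. Atf4 (chr15:80255184-80257545) had 97.2, 83.8, 88.8 and 97.3 TPM in control, 88.1, 92.5, 81.9 and 86.2 TPM in knockdown, and 87.1, 77.5, 92.5 and 115 TPM in rescue. The groups overlapped, and the log2 fold changes were -0.07 (95% confidence interval -0.30 to 0.16) and 0.08 (-0.15 to 0.31). ATF4 is set largely by translation, which mRNA levels do not show.

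Ddit3 encodes CHOP, which promotes cell death under lasting ER stress (chr10:127290793-127296291). It was low, at 6.56, 7.83, 5.25 and 7.05 TPM in control, 8.38, 6.41, 6.74 and 5.82 TPM in knockdown, and 6.55, 7.71, 9.16 and 7.00 TPM in rescue. The ranges overlapped, with a log2 fold change of 0.03 after knockdown (95% confidence interval -0.27 to 0.34). Its second identifier overlaps it on the same strand in the GENCODE annotation of GRCm39, so reads may have been lost between the 2 rows and the level of Ddit3 is uncertain.

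Trib3, a pseudokinase induced by ATF4 and CHOP (chr2:152337425-152344060), had 9.84, 18.3, 9.31 and 9.47 TPM in control, 11.5, 11.2, 8.72 and 10.8 TPM in knockdown, and 11.8, 7.02, 10.2 and 7.58 TPM in rescue. Ad-Ctrl mouse 2 stood above all other mice. The log2 fold change after knockdown was -0.09 (95% confidence interval -0.54 to 0.36), and without that mouse it was 0.13.

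Asns, asparagine synthetase (chr6:7675165-7693209), varied most between mice of the same group. Control mice had 4.19, 6.65, 5.65 and 26.5 TPM, knockdown mice 1.77, 2.37, 5.94 and 9.03 TPM, and rescue mice 4.03, 4.08, 7.14 and 21.8 TPM. In each group 1 mouse, number 4, was the highest, and the coefficient of variation was 98.1%, 70.7% and 91.6%, against 4.07% to 37.3% in the other 9 genes. The knockdown mean was 44.5% of the control mean, yet the log2 fold change of -0.87 had a 95% confidence interval of -2.18 to 0.44 (adjusted p = 0.45). Without Ad-Ctrl mouse 4 the change was -0.35. Rescue minus knockdown was 0.72 (95% confidence interval -0.59 to 2.02).

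The kinases and phosphatase that act on eIF2alpha held 7 tested genes, of which 0 passed the study's threshold in any comparison. Of all genes 7.65% passed it after knockdown, 3% in rescue minus knockdown and 7.49% in rescue minus control. At an adjusted p under 0.05, 1 of the 7 was called after knockdown, as higher, against 2.44% of all genes called as higher. Ppp1r15b, the constitutive subunit of the phosphatase that reverses eIF2alpha phosphorylation, was higher after knockdown, at 114 to 144 TPM against 99.9 to 111 TPM (log2 fold change 0.34, adjusted p = 0.040), a call kept in 5 of 21 alternatives (adjusted p up to 0.15). Ppp1r15a, its stress-induced counterpart GADD34, had -0.16 (adjusted p = 0.45). Eif2ak2, the kinase PKR, had -0.31 after knockdown (adjusted p = 0.31) and 0.38 in rescue minus knockdown (adjusted p = 0.44), and Ad-shmGULL mouse 1, at 13.3 TPM, was the lowest of the 12 mice. Eif2ak1, the kinase HRI, had -0.16 (adjusted p = 0.27) and 0.20 (adjusted p = 0.41).

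The targets of ATF4 were taken as separate lists. Of 15 tested transcription factors and stress genes, 1 passed the study's threshold after knockdown, Gadd45a, a DNA damage and stress gene, with 0.62 (adjusted p = 0.20). That is 1 of 15 against 7.65% of all genes, and 11 of the 15 were above 0. Atf5, a factor of the same family as ATF4, had 0.40 (adjusted p = 0.13). Fgf21, a hormone secreted by the liver under stress, had 6.50, 3.07, 3.57 and 5.75 TPM in control, 12.9, 17.0, 11.2 and 2.50 TPM in knockdown, and 7.70, 6.70, 5.15 and 6.74 TPM in rescue. In Fgf21, 3 of 4 knockdown mice were above all others and knockdown mouse 4 was below all others, and the change of 0.87 did not pass (adjusted p = 0.25). Atf3, an early stress factor, had -0.29 (adjusted p = 0.34) and 0.42 in rescue minus knockdown (adjusted p = 0.42), and Sesn2, a stress sensor of amino acids, 0.16 (adjusted p = 0.56) and 0.35 (adjusted p = 0.42). In rescue minus control 13 of the 15 were above 0 and 3 passed the study's threshold, all higher, against 6.84% of all genes passing as higher. These were Gadd45a (0.81, adjusted p = 0.091), Tnfrsf10b, a death receptor (0.72, adjusted p = 0.055), and Sesn2 (0.51, adjusted p = 0.064), in a comparison where the median of all genes was 0.17.

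Of 14 tested genes for amino acid synthesis and transport, 1 passed the study's threshold after knockdown, against 7.65% of all genes, so the count is near that of genes at large. Slc1a4, a transporter of neutral amino acids, had 2.49, 2.198, 2.60 and 2.66 TPM in control. Knockdown mice had 4.58, 5.85, 4.89 and 4.17 TPM, and rescue mice 3.23, 3.45, 2.60 and 2.59 TPM. The knockdown mice lay above all others, with a log2 fold change of 0.75 (SE 0.13, adjusted p = 0.012), and rescue minus knockdown was -0.56 (adjusted p = 0.31), or -0.49 without Ad-shmGULL mouse 2, short of the study's threshold. Slc38a2, another amino acid transporter, went the other way with -0.47 (adjusted p = 0.068), and Slc3a2, the heavy chain shared by several transporters, had 0.36 (adjusted p = 0.068). A CARE was found at -4 to 4 of the Slc1a4 window, on the other strand.

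Of 12 aminoacyl-tRNA synthetases, which charge tRNAs and are induced by ATF4, 0 passed either threshold in any comparison. The study's threshold was passed by 7.65% of all genes after knockdown, 3% in rescue minus knockdown and 7.49% in rescue minus control. At an adjusted p under 0.05 these shares were 3.23%, 0% and 2.15%. The smallest P after knockdown belonged to Cars (0.45, adjusted p = 0.096), Sars (0.25, adjusted p = 0.11) and Tars (0.26, adjusted p = 0.12). In rescue minus knockdown Wars had 0.48 (adjusted p = 0.32) and Iars had 0.17 (adjusted p = 0.46). CARE was found in 5 of the 8 windows of this list, those of Aars, Gars, Iars, Tars and Yars.

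Cytosolic and mitochondrial heat shock genes, whose proteins act outside the ER, were included beside the ER lists. After knockdown 0 of 16 passed the study's threshold or an adjusted p under 0.05 in limma, against 7.65% and 3.23% of all genes. At an unadjusted P under 0.05 there were 6 of 16, against 20.2% of all genes. Hspa9, the mitochondrial HSP70, had 0.25 (adjusted p = 0.10), Dnajb1 0.29 (adjusted p = 0.14) and Hsph1, a nucleotide exchange factor of HSP70, 0.34 (adjusted p = 0.14). In rescue minus control, 10 of 16 had an unadjusted P under 0.05 in limma, against 25.3% of all genes. The study's threshold was passed there by 2 of 16, Dnajb1 and Hspa1b (0.68), both higher, against 6.84% of all genes passing as higher. At an adjusted p under 0.05, 2 of 16 were called, both higher, against 2.12% of all genes called as higher. These were Dnajb1, a co-chaperone of HSP70, with 0.55 (adjusted p = 0.039), and Hspa8, the constitutive HSP70, with 0.42 (adjusted p = 0.041). Relative to the median of all genes in that comparison, 0.17, these steps were 0.38 and 0.25, and with median-of-ratios scaling neither gene was called (adjusted p = 0.11 and adjusted p = 0.23). In rescue minus knockdown they were 0.26 (adjusted p = 0.42) and 0.25 (adjusted p = 0.40).

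Over the 9 lists together, 140 of 146 genes were tested. After knockdown 2 passed the study's threshold as higher and 3 as lower, and 5 and 4 were called at an adjusted p under 0.05, against 7.65% and 3.23% of all genes. In rescue minus knockdown 3 were higher and 1 lower at that threshold, against 3% of all genes, with 0 at an adjusted p under 0.05 in limma and 26 at an unadjusted P under 0.05, against 10.7% of all genes. In rescue minus control the counts were 5 and 1, against 6.84% of all genes passing as higher and 0.641% as lower.

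The 10 genes did not vary as a block within groups. With group means removed, the correlation of log2 levels over the 12 mice was highest for Atf6 with Hsp90b1 (r = 0.83), with Dnajb9 (r = 0.70) and with Asns (r = 0.70). The next highest correlation was that of Hspa5 with Ddit3 (r = 0.69). The correlation was 0.57 for Xbp1 with Dnajb9, and lowest for Hsp90b1 with Ddit3 (r = -0.63). Hspa5 and Hsp90b1, the chaperones with the highest levels among the 10 genes, had r = -0.51. These are descriptions over 12 libraries that share a TPM total, and no test was made.

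Among 10947 tested genes averaging 5 TPM or more, the pattern over the 12 mice most like that of Hspa5 was that of Creld2 (r = 0.89), an ER protein whose window also holds an ERSE, followed by Znhit2, Mir1954, Zfp622 and Vaultrc5 (r = 0.85, 0.84, 0.84 and 0.81). With group means removed, Creld2 had r = 0.89. For Asns the closest were Ninj1 (r = 0.91), Slc1a2, Sidt2, Clec4f and Hrg (r = 0.88, 0.88, 0.87 and 0.86), and Clec4f is also one of the Kupffer cell markers. For Dnajb9, looked up after its values were seen, they were Elk4, Tirap, Edem3, Smurf2 and Tm9sf2 (r = 0.96, 0.96, 0.95, 0.95 and 0.94), and for Xbp1 they were Larp4b, Lamtor5, Kat2b, Ostc and Tnfaip1 (r = 0.96, 0.94, 0.93, 0.92 and 0.92). Edem3 with Dnajb9 was 0.87 with group means removed. In Xbp1 and Dnajb9 the difference between groups enters these values.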

How the data were processed

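Per the labels and the study's methods, the authors trimmed strand-specific liver libraries with fastp 0.23.2, checked them with FastQC 0.11.8, aligned them with HISAT2 2.2.1.0 to GRCm38.p6, counted reads per GENCODE VM24 gene with featureCounts (Subread 2.0), and deposited TPM, 4 mice in each of 3 groups. Read depth is not given in the sources used here. Here, log2(TPM + 1) of the 16378 features with a mean TPM of at least 1 was fitted in R 4.3.3 with limma 3.58.1, as 1 model of 3 groups with moderated variances following a trend in mean level, and p-values were adjusted by Benjamini-Hochberg over all features. Fold changes are on the log2(TPM + 1) scale, which understates those of low genes. The exact permutation test was two-sided. Alternatives changed the pseudocount, filter, scaling, trend, weights, groups in the fit, replicate block and mice. On simulated data the fit was tested before use. The 10 genes and all lists were chosen with earlier results of these data known. Named genes were the 10, up to 3 per list with the smallest P after knockdown, up to 2 in rescue minus knockdown, Eif2ak2, Eif2ak3, Ern1, Ppp1r15a, Atf3 and Fgf21, and the 5 genes most correlated with Hspa5 and with Asns; others are marked or belong to a count. Coordinates and promoters are from RefSeq on GRCm38.p6. Figures used matplotlib 3.10.9.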

Additional observations from a re-analysis of the deposited data

Results flagged for a closer look

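Of 144 groups of 4 mice examined, in 48 genes, 9 held 1 mouse whose gap to the nearest other mouse was, as a share of the range of the group, over the critical value of Dixon's test at 95%; chance gives about 1 in 20, or 7.2. Among the 10 genes these were Trib3 in Ad-Ctrl mouse 2 (18.3 TPM) and Asns in Ad-Ctrl mouse 4 (26.5 TPM). Among the list genes they were Sdf2l1 in Ad-Ctrl mouse 4 (69.3 TPM), Edem3 in Ad-shmGULL mouse 1 (20.8 TPM) and rescue mouse 4 (35.9 TPM), Slc3a2 in Ad-Ctrl mouse 1 (35.2 TPM) and Ad-shmGULL mouse 3 (32.1 TPM), Sars in rescue mouse 1 (36.8 TPM) and Wars in Ad-Ctrl mouse 3 (23.7 TPM).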

How the results depend on the processing

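Of the fold changes of the 10 genes in 3 comparisons, 594 values under alternatives kept direction and side of the threshold, 29 changed sign, 3 came to pass the study's threshold and 4 no longer did. The count of the 10 genes past that threshold after knockdown was 2 with median-of-ratios scaling, where Xbp1 joined. At an adjusted p under 0.05 it was 1 with no filter, 0 with only the 2 groups in the fit, 1 with no trend, and 0 to 2 when leaving out 1 mouse. In rescue minus knockdown the count past the study's threshold was 0 with median-of-ratios scaling, 0 with quantile normalization, 0 with array weights, and 0 to 1 when leaving out 1 mouse; the 0 came without Ad-shmGULL mouse 1. The cause was not tested. Over 21 alternatives the adjusted p after knockdown was 0.0094 to 0.0998 for Xbp1, under 0.05 in 17, and 0.0218 to 0.128 for Dnajb9, under 0.05 in 9. Same-numbered mice did not deviate together over the tested genes (12 correlations of -0.24 to 0.15, 2 of them over 0.1). Of the 12 mice, 4 correlated best with their own number. No pairing by number was seen, but weak correlations over all genes cannot exclude one. With a replicate block the counts past the study's threshold were 2 after knockdown and 2 in rescue minus knockdown, Asns joining with -0.87 and 0.72, and all genes past it went from 1253 to 1275 after knockdown.

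The fold changes that changed sign were ones that no threshold called as reported. With median-of-ratios scaling they were Ddit3 after knockdown (-0.058), Atf4 in rescue minus knockdown (-0.019), and Hsp90b1 (-0.058), Atf4 (-0.19), Atf6 (-0.080) and Ddit3 (-0.0095) in rescue minus control. With quantile normalization they were Hspa5 (0.0018) and Ddit3 (-0.068) after knockdown, and Atf4 (-0.16), Atf6 (-0.043) and Ddit3 (-0.027) in rescue minus control. With array weights they were Ddit3 (-0.045) and Trib3 (0.012) after knockdown and Atf4 (-0.036) in rescue minus control. Leaving out 1 mouse gave after knockdown -0.13 to 0.037 for Hspa5, -0.13 to 0.0093 for Hsp90b1, -0.063 to 0.10 for Ddit3 and -0.17 to 0.13 for Trib3, and in rescue minus knockdown -0.027 to 0.16 for Atf4; in rescue minus control it gave -0.099 to 0.088 for Atf4 and -0.64 to 0.37 for Asns. Of the changes of sign, those of Asns came without Ad-Ctrl mouse 4 or rescue mouse 1 or 2. Both scalings moved the median of all genes in rescue minus control from 0.17 to about 0, that is to -0.0030 and -0.0082, and moved the genes past the study's threshold from 1121 higher and 105 lower to 486 and 237 with median-of-ratios scaling and to 440 and 261 with quantile normalization. After knockdown these counts went from 876 and 377 to 625 and 548 and to 576 and 529. Genes called at an adjusted p under 0.05 after knockdown were 529 as reported, 236 with no filter, 33 with only the 2 groups in the fit, 344 with no trend, and 167 to 1055 when leaving out 1 mouse. In rescue minus control they were 352 as reported, 9 with no filter, 568 at a mean TPM of at least 5, 11 with either scaling, 1693 with only the 2 groups in the fit, 35 with no trend, 3184 with array weights and 71 with the replicate block. With no known depth, low genes such as Ddit3, Asns and Derl3 are the least certain.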
